A study of Homo sapiens with 12 samples.

Results

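The 37 interferon-stimulated genes described here were taken by symbol from the 56269 genes of 1 count table of the ovarian cancer line HEYA8, and all 37 were in it. They are genes known to be switched on by interferon, with ISG15 as their marker, and the rule that names them uses no measured value, although they were listed with earlier results of these data known. RNA-seq was performed on 12 libraries, 3 each from cells infected with control vector and from cells expressing 1 of 3 betaglycan (BG, gene TGFBR3) constructs. S534A (CS-BG) and S545A (HS-BG) each lack the serine that carries 1 of the glycosaminoglycan chains of BG, and ∆GAG-BG carries both serine-to-alanine changes. All cells were grown in serum-containing medium and collected at steady state, and the labels name no other treatment. The constructs were delivered by lentivirus from a vector that also encodes dTomato, and infected cells were sorted for that protein. The submitters call the 3 libraries of a group biological replicates but do not say from which cultures they came, so p-values measure the spread between these libraries.

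Interferons are secreted proteins that a cell makes when it senses viral nucleic acid. Type I interferons bind the receptor IFNAR1-IFNAR2, the kinases JAK1 and TYK2 activate transcription factors such as STAT2, which joins IRF9 in a complex that binds interferon-stimulated response elements in the promoters of its targets. The targets include sensors of viral RNA, proteins that block entry, translation or replication of viruses, and ISG15, a ubiquitin-like protein that is attached to other proteins. Some of them keep a level without added interferon, and others are almost silent until it is present.

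Total counts per library ran from 16410001 to 29504297, so that a gene with a count of 0 could still be at up to 0.1 to 0.182 CPM (3 counts, counting error only). Values below are CPM, counts scaled to a common library size by TMM, or RPKM, the same per kilobase of exon, where levels of different genes are compared. TGFBR3 was highest in the S534A (413 to 476 CPM) and S545A (520 to 574 CPM) libraries, but the libraries labelled control vector had 15.9, 259 and 259 CPM and those labelled ∆GAG-BG had 260, 20.3 and 21.4 CPM. In libraries 2 and 3 of those groups TGFBR3 therefore goes against the labels, and each direction drawn from the libraries labelled ∆GAG-BG or control vector carries this limit. Libraries 2 and 3 of the control vector, ∆GAG-BG and S545A groups lay close together (chi-square over degrees of freedom between 1.40 and 1.94, where other pairs of 1 group had 16.4 to 74.4). HSPA5, a chaperone of the endoplasmic reticulum, was at 11860 CPM in ∆GAG-BG library 1 and 287 CPM in S534A library 2, against 1228 to 3906 CPM elsewhere. The third S545A library has a title that reads S545S. Of the ovarian carcinoma markers, PAX8 was at 193 to 295 CPM, KRT8 at 688 to 1007 CPM and VIM at 2343 to 3132 CPM, WT1 and KRT18 were present, EPCAM was low at 0.367 to 1.77 CPM and MUC16 was at 0 in every library. Of the immune markers, CD3E was at 0, PTPRC and CD14 did not exceed 4 counts, ITGAM reached 1.27 CPM in S534A library 2, and NCAM1, which other cells also express, was at 20.4 to 48.7 CPM.

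Most of the promoters searched hold a sequence motif that the rule naming the genes did not use. The genes are known to be switched on by interferon and the motif belongs to its response element, so the match is not independent of their choice. Windows from 250 bases before to 50 bases after the RefSeq start (GRCh38.p14) were given for 30 of the 37 genes, all but IFIT2, IFITM2, OAS2, OASL, MX2, IRF7 and USP18 (DDX58 is listed there as RIGI). The motif GAAANNGAAA, the core of an interferon-stimulated response element, was searched on both strands and was found in 18 of the 30 windows (60.0%), against 1255 of 35116 windows of all genes (3.57%). At least 2 matches, which may overlap, were found in 13 members (43.3%) and in 91 of all windows (0.259%). The motif TTCNNNGAA, the core of the gamma-activated sequence, was found in 7 members (23.3%) and in 2689 of all windows (7.66%). Among the members with a window, 15 of 24 that passed the filter on low counts and 3 of 6 that did not held GAAANNGAAA. A match describes the letters of the window and shows no binding.

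Stretches of 60 bases are shown for 6 members. ISG15 is shown because it marks the group, the others because they had the largest SD of log2(CPM + 1) between libraries. Capitals mark GAAANNGAAA or its reverse complement, and each is read 5′ to 3′ on the gene's own strand.
ISG15: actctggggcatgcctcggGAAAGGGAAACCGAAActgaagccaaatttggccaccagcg
IFI6: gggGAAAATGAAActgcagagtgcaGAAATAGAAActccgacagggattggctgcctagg
IFI44: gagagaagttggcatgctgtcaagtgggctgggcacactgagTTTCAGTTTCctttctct
IFI44L: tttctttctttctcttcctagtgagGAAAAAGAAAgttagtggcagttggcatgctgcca
IFIT1: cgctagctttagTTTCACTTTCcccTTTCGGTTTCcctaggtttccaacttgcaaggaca
IFIT3: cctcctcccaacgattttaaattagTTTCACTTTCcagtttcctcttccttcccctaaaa
The ISG15 stretch is chr1:1013365-1013424 on the plus strand and holds 2 overlapping matches. The IFI6 stretch is chr1:27672251-27672310 on the minus strand and the IFI44 stretch is chr1:78649729-78649788 on the plus strand. The IFI44L stretch is chr1:78620350-78620409, the IFIT1 stretch chr10:89392495-89392554 and the IFIT3 stretch chr10:89327850-89327909, all on the plus strand. By GENCODE release 29, 0 bases of the IFI6 and IFI44 stretches, 2 of the ISG15, 28 of the IFI44L, 9 of the IFIT1 and 16 of the IFIT3 stretch fall in an exon.

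Without added interferon, the 37 genes covered the whole range from abundant to silent. Per length, 3 members had a median of 10 RPKM or more over the 12 libraries, 15 lay between 1 and 10 RPKM and 19 lay below 1 RPKM. IFITM3, a membrane protein that blocks virus entry, was the most abundant at a median of 143.8 RPKM, the 98.7th percentile of the genes tested. Its relative IFITM2 followed at 52.2 RPKM, and EIF2AK2, the kinase PKR that stops translation on double-stranded RNA, at 11.3 RPKM. The lowest of the tested members were MX1, a GTPase that traps viral particles, at 0.152 RPKM, IFI44L at 0.105, IFI27 at 0.101 and OAS2 at 0.0807 RPKM. The filter on low counts was passed by 29 members. The other 8 were IFITM1, OASL, MX2, RSAD2, HERC5, XAF1, BST2 and CMPK2, of which 3 had at most 3 counts in every library and 6 had a count of 0 in at least 1 library. The 8 include MX2, RSAD2 (viperin) and BST2 (tetherin), all known as antiviral effectors.

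**Figure D1:**
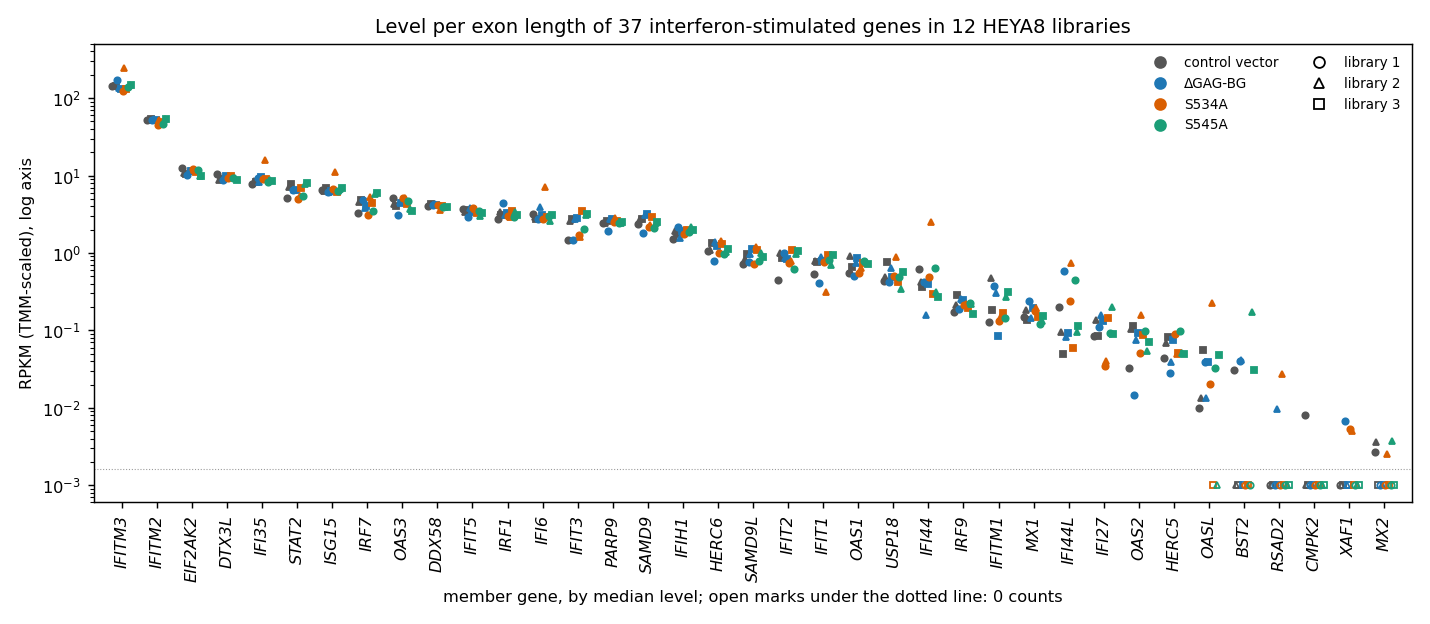
Levels of the 37 genes per kilobase of exon (RPKM on TMM-scaled libraries, log axis), ordered by median, with 1 mark for each of the 12 libraries, coloured by group and shaped by library number. Medians run from 143.8 RPKM for IFITM3 to 0 for 5 genes at the right, and open marks under the dotted line are counts of 0.

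Neighbouring genes of this order differed by less than their own spread between libraries over much of its length. DTX3L (51.1 to 60.8 CPM, 9.38 RPKM) and IFI35 (15.5 to 31.5 CPM, 8.67 RPKM) overlapped per length, as did STAT2 (6.55 RPKM) and ISG15 (6.41 RPKM), and IRF7 (4.48 RPKM), OAS3 (4.39 RPKM) and DDX58 (4.10 RPKM). IFITM3 and IFITM2 did not overlap each other or any other member. The ratio of the highest to the lowest of the 12 libraries was under 1.5 in 7 of the 29 tested members, 1.5 to 2 in 12 and 2 or more in 10.

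Near relatives lie in tandem, and their reads can be hard to assign. On GRCh38, IFIT2, IFIT3, IFIT1 and IFIT5 follow each other on chromosome 10 from 89283694 to 89421001, OAS1, OAS3 and OAS2 on chromosome 12 from 112906777 to 113011723, and IFI44L and IFI44 on chromosome 1 from 78619922 to 78664078. Of the 37 genes, 22 share no exon base with another gene. IFITM1 and IFITM2 share 351 exon bases on 1 strand, which are 32.5% and 22.7% of each, and IRF9 shares 48.4% of its exon bases with an overlapping gene of its strand, so that the counts of IFITM1, IFITM2 and IRF9 are uncertain. IFITM3 shares 21.3% and XAF1 38.3% with a gene of the other strand. IFITM2 and IFITM3 are close in sequence, and USP18 has a near-identical copy, USP41, so these values are uncertain too.

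RNA of the type I receptor and its kinases was present, while that of the ligands examined was at or near 0. Of 8 interferon genes examined (IFNB1, IFNE, IFNK, IFNL1, IFNL2, IFNL3, IFNA1 and IFNG), 7 had 0 counts in every library and IFNK had at most 1 count. The receptor chain IFNAR1 was at 54.0 to 70.7 CPM and IFNAR2 at 4.17 to 8.68 CPM, while IFNLR1, the chain particular to type III interferons, was at 0. JAK1 was at 250 to 325 CPM and TYK2 at 59.8 to 84.9 CPM. A level of RNA does not show whether these proteins were active.

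The comparisons among the constructs asked whether these genes differed between BG with 1 or no glycosaminoglycan chain. No library of full-length BG was analysed here, and a comparison with control vector sets expression of a construct and its missing chains together against neither. No member passed the test in any of the 6 comparisons. In such bulk RNA, fewer cells that express a gene and less of its RNA per cell cannot be told apart. By edgeR's quasi-likelihood test with Benjamini-Hochberg adjustment, 0 of 16069 genes (0%) had an adjusted p under 0.05 in each comparison, and the lowest adjusted p of any member was 0.702. DESeq2 called 5 genes when S534A was set against ∆GAG-BG, 2 when it was set against control vector and 1 between S545A and S534A, none of them a member, and 0 in the other comparisons. At an unadjusted p under 0.05 the edgeR test gave 3 member results in all. The comparisons share their groups, and so their libraries, and are not independent of each other.

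**Figure D2:**
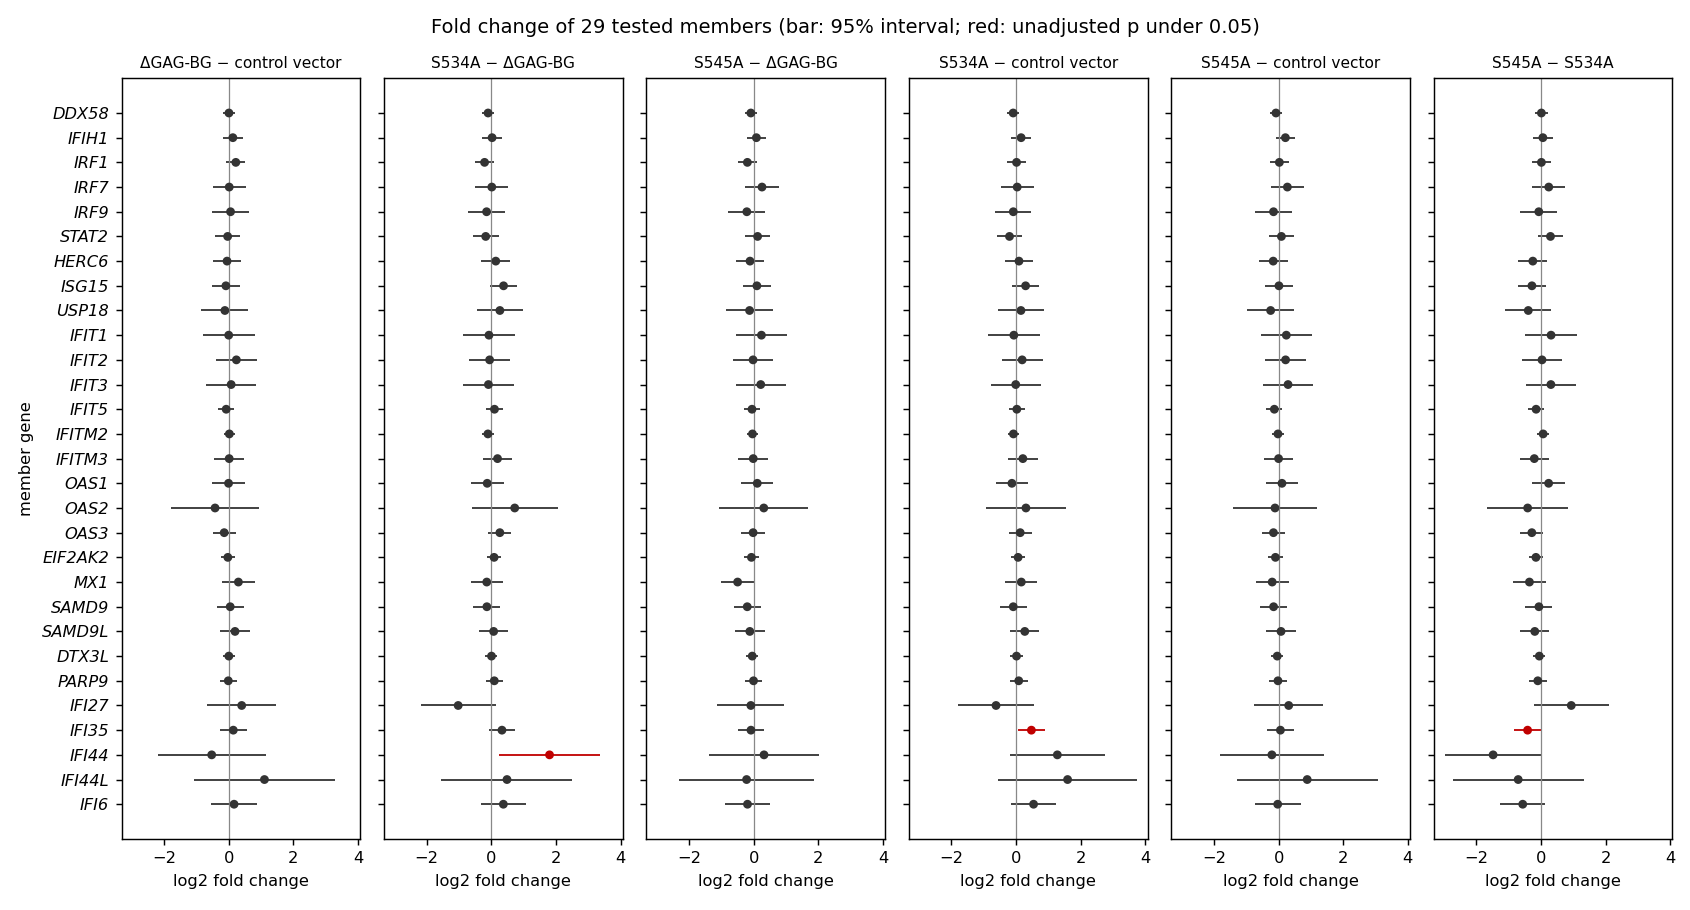
Log2 fold changes of the 29 tested members in each of the 6 comparisons (points), with 95% intervals (bars) from edgeR's quasi-likelihood fit, members in rows by role. The 3 red points, IFI44 in S534A against ∆GAG-BG and IFI35 in both other S534A comparisons, have an unadjusted p under 0.05, and the wide bars belong to IFI44L, IFI44, OAS2 and IFI27, which have low counts or differ between libraries of a group.

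In ∆GAG-BG against control vector, 0 of 29 members had an unadjusted p under 0.05, against 0.871% of all genes tested. The median log2 fold change of the members was 0.01, against 0.00 over all genes tested, and 27 of the 29 lay within 0.5 of 0. The exceptions were IFI44L, with a log2 fold change of 1.10 (95% interval -1.08 to 3.29), and IFI44, with -0.53 (-2.20 to 1.14). The direction of IFI44L rested on ∆GAG-BG library 1, without which it was -0.45. ISG15 was at 6.09, 5.99 and 6.46 CPM with control vector and at 5.76, 5.76 and 5.92 CPM in ∆GAG-BG libraries 1 to 3. All 3 ∆GAG-BG values of ISG15 lay below the control values, by a log2 fold change of -0.09 (standard error, SE, of 0.199). The edgeR p of ISG15 was 0.664. It was the 1 member without overlap, where 4.87% of all genes did not overlap. For 3 against 3 libraries without overlap, the exact permutation test always gives a two-sided p of 0.1, the smallest possible. That p therefore adds nothing to the lack of overlap.

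In S534A against ∆GAG-BG, 1 of 29 members, IFI44, had an unadjusted p under 0.05, against 2.99% of all genes tested. IFI44, a cytoplasmic protein induced by type I interferon, was at 0.996, 5.17 and 0.607 CPM in S534A libraries 1 to 3 and at 0.862, 0.325 and 0.813 CPM in the ∆GAG-BG libraries. S534A library 2 was high, and the other libraries of both groups overlapped. Its log2 fold change was 1.80 (SE 0.714, 95% interval 0.24 to 3.37), with a p of 0.0274 and an adjusted p of 0.89 by edgeR. Without S534A library 2 it was 0.31, with an edgeR p of 0.546, and without ∆GAG-BG library 2 it was 1.48, no longer at an unadjusted p under 0.05. Of the 14 alternatives that tested IFI44 here, including libraries left out, 7 kept an unadjusted p under 0.05. The members' median log2 fold change was 0.03, against 0.00 over all genes, and 26 of the 29 lay within 0.5 of 0. The others were IFI44, IFI27 at -1.02 (95% interval -2.18 to 0.14) and OAS2 at 0.73 (-0.60 to 2.06). DDX58, which encodes the RNA sensor RIG-I, was at 17.9, 15.5 and 17.8 CPM in S534A and at 18.1, 18.7 and 18.0 CPM in ∆GAG-BG. These groups did not overlap (5.66% of all genes did not), and the log2 fold change was -0.10 (SE 0.0886).

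In S545A against ∆GAG-BG, 0 of 29 members had an unadjusted p under 0.05, against 1.10% of all genes, and all 29 lay within 0.5 of 0 on the log2 scale, with a median of -0.04 against -0.01 over all genes. MX1 came nearest, with 1.05, 1.13 and 1.33 CPM in S545A and 2.04, 1.25 and 1.67 CPM in ∆GAG-BG. The values overlapped, and the log2 fold change was -0.50 (95% interval -1.00 to 0.01), with an unadjusted edgeR p of 0.0532. DDX58 did not overlap here either (5.05% of all genes), at 17.2, 17.1 and 17.1 CPM in S545A, and the log2 fold change was -0.09 (SE 0.0885).

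In S534A against control vector, 1 of 29 members, IFI35, had an unadjusted p under 0.05, against 3.45% of all genes. IFI35, a leucine zipper protein that partners with NMI, was at 17.6, 31.5 and 18.0 CPM in S534A and at 15.5, 16.5 and 16.5 CPM with control vector. The groups did not overlap, as 7.65% of all genes did not, but S534A library 2 stood far above the other 5. The log2 fold change was 0.47 (SE 0.187, 95% interval 0.07 to 0.88), with a p of 0.0266 and an adjusted p of 0.871 by edgeR. Without S534A library 2 it was 0.14, without control vector library 1 it was 0.44 and without library 3 it was 0.49, each time at an unadjusted p above 0.05. The members' median log2 fold change of 0.08, against 0.01 over all genes, became -0.03 without that library. Of the 29, 25 lay within 0.5 of 0, and the others were IFI44L at 1.59 (95% interval -0.55 to 3.73), IFI44 at 1.28 (-0.20 to 2.75), IFI6 at 0.54 (-0.16 to 1.23) and IFI27 at -0.62 (-1.80 to 0.56).

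In S545A against control vector, 0 of 29 members had an unadjusted p under 0.05, against 1.05% of all genes, and 28 lay within 0.5 of 0 on the log2 scale, with a median of -0.02 against 0.00 over all genes. IFI44L was the exception, with 4.54, 0.980 and 1.16 CPM in S545A and 2.08, 0.990 and 0.509 CPM with control vector, a log2 fold change of 0.89 (95% interval -1.30 to 3.07). DDX58 was the 1 member whose groups did not overlap (8.82% of all genes), with 17.6, 18.3 and 18.6 CPM in control vector and a log2 fold change of -0.08 (SE 0.0883).

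In S545A against S534A, 1 of 29 members had an unadjusted p under 0.05, against 4.78% of all genes. It was IFI35 again, at 16.2, 17.4 and 16.9 CPM in S545A, and its log2 fold change of -0.42 (SE 0.187) had an unadjusted p of 0.0460 and an adjusted p of 0.702 by edgeR. IFI35 was also the 1 member whose groups did not overlap (10.1% of all genes). Its log2 fold change was -0.08 without S534A library 2 and -0.39 to -0.44 without any 1 S545A library, each time at an unadjusted p above 0.05. The members' median was -0.10, against 0.00 over all genes, and 25 of the 29 lay within 0.5 of 0. IFI44 had a log2 fold change of -1.48 (95% interval -2.98 to 0.01), which became 0.01 without that library. The others outside 0.5 were IFI27 at 0.93 (-0.22 to 2.09), IFI44L at -0.71 (-2.73 to 1.32) and IFI6 at -0.57 (-1.26 to 0.13).

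The remaining members are given by role. Of the sensors, IFIH1 (MDA5) was at 6.95 to 9.71 CPM. Of the transcription factors, STAT2 was at 30.5 to 48.8 CPM, IRF1 at 21.4 to 34.1 CPM, IRF7 at 8.21 to 15.4 CPM and IRF9 at 0.615 to 1.10 CPM. ISG15's protease USP18 was at 0.735 to 1.90 CPM, and HERC6, of the family of ISG15 ligases, at 4.58 to 8.28 CPM. The IFIT proteins bind foreign RNA, and IFIT5 (11.8 to 15.3 CPM) spread less between libraries than IFIT1 (1.44 to 4.37 CPM), IFIT2 (1.83 to 4.49 CPM) or IFIT3 (3.87 to 9.28 CPM). The OAS enzymes, which activate RNase L, were at 25.4 to 42.7 CPM for OAS3, 2.49 to 4.53 CPM for OAS1 and 0.0907 to 1.00 CPM for OAS2. SAMD9 (12.6 to 21.9 CPM) and SAMD9L (5.19 to 8.64 CPM) are antiviral relatives, and PARP9 (17.3 to 25.4 CPM) and DTX3L (51.1 to 60.8 CPM) form a complex of the interferon response. None of these had an unadjusted p under 0.05 in any comparison by edgeR.

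**Figure D3:**
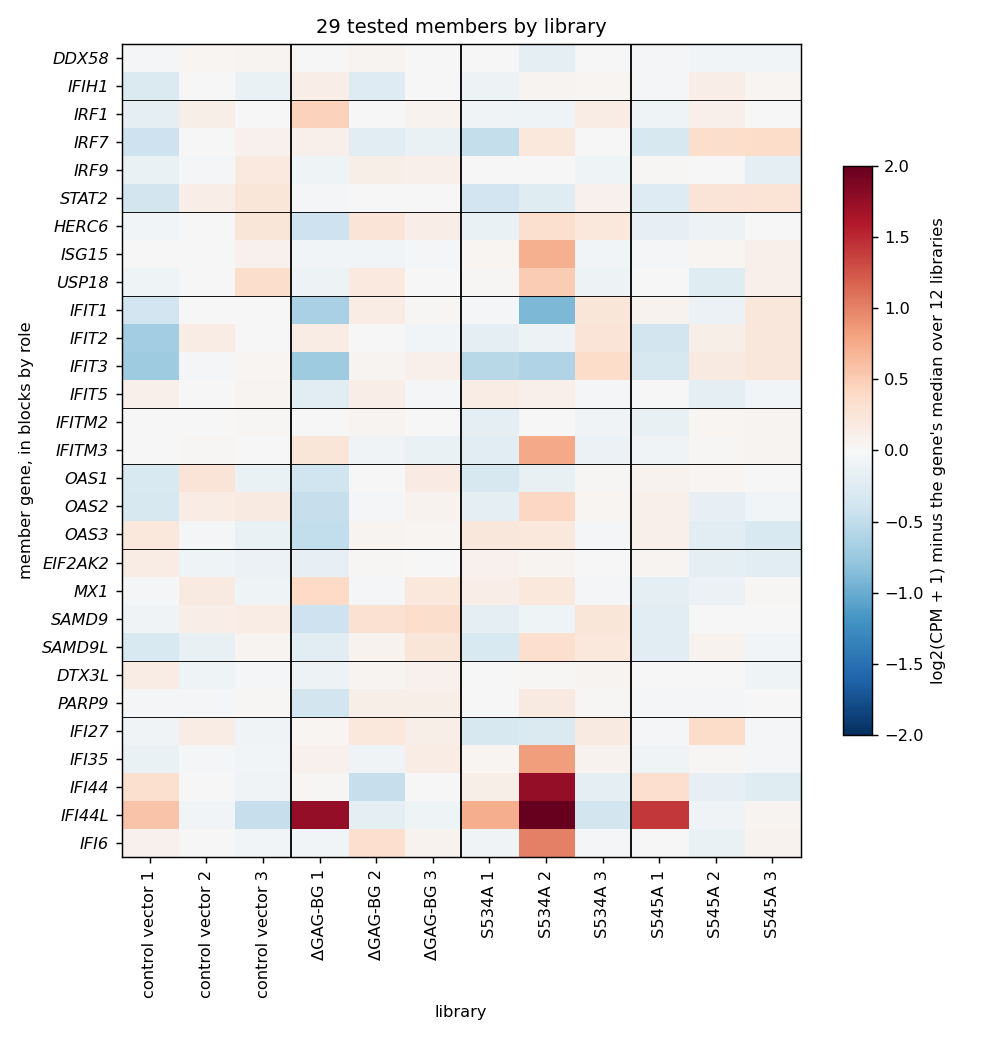
Each of the 29 tested members (rows, in blocks by role) in each of the 12 libraries (columns), as log2(CPM + 1) minus the gene's median over the libraries. S534A library 2 holds red cells for IFI44L, IFI44, IFI6, IFI35, IFITM3 and ISG15 and a blue cell for IFIT1, and IFI44L is also dark red in ∆GAG-BG library 1 and S545A library 1.

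Single libraries stood apart from their groups in these genes. S534A library 2, described here after its values were seen, had the highest value of all 12 libraries in 11 of the 29 tested members (37.9%, against 26.1% of all genes) and the lowest in 2 (6.9%, against 25.4%). It lay above 1.5 times the median of the other 11 libraries in 8 members (27.6%, against 10.8% of all genes) and below that median divided by 1.5 in 3 (10.3%, against 14.0%). The 8 were IFI44L (7.69 times), IFI44 (6.36), IFI6 (2.45), OAS2 (2.16), IFI35 (1.87), USP18 (1.83), ISG15 (1.77) and IFITM3 (1.71). The 3 below were IFI27 (0.368 times), IFIT1 (0.401) and IFIT3 (0.585), and 18 lay within. Members thus lay on both sides of the other libraries. ∆GAG-BG library 1 was the lowest of the 12 in 9 of the 29 members (16% of all genes) and the highest in 3 (16.3%). Control vector library 1 was the lowest in 6 (10.1% of all genes) and the highest in 2 (9.22%). These counts were also made after the values were seen.

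ISG15 was at 10.6 CPM in S534A library 2 and at 5.76 to 6.56 CPM in the other 11. IFI6, an inhibitor of cell death and virus replication, was at 6.11 CPM against 2.21 to 3.44 CPM, and IFITM3 was at 329 CPM against 166 to 229 CPM. IFIT1 was at 1.44 CPM there, the lowest of the 12, with 1.91 to 4.37 CPM in the others. The untested OASL, an OAS-like protein without enzyme activity, had 24 counts in this library and at most 5 in any other, and RSAD2 had 4 counts against at most 1. Of the windows searched for GAAANNGAAA, the motif was in 5 of the 6 members above 1.5 times that had a window (IFI35 had none) and in all 3 of those below. Among all tested members with a window it was in 15 of 24. These few were picked by their values, so no link of the motif to the library is drawn. Marker lists moved both ways in this library. Of the ovarian markers, WT1 was highest of the 12 (8.38 CPM), KRT18 (451 CPM) and EPCAM (0.367 CPM) were lowest, KRT8, PAX8 and VIM lay within the range of the others and MUC16 was at 0. Of the immune markers, ITGAM was highest (1.27 CPM), NCAM1 lowest (20.4 CPM) and PTPRC and CD14 at 1 count or less, and HSPA5 was also lowest. Their part in the values was not tested.

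**Figure D4:**
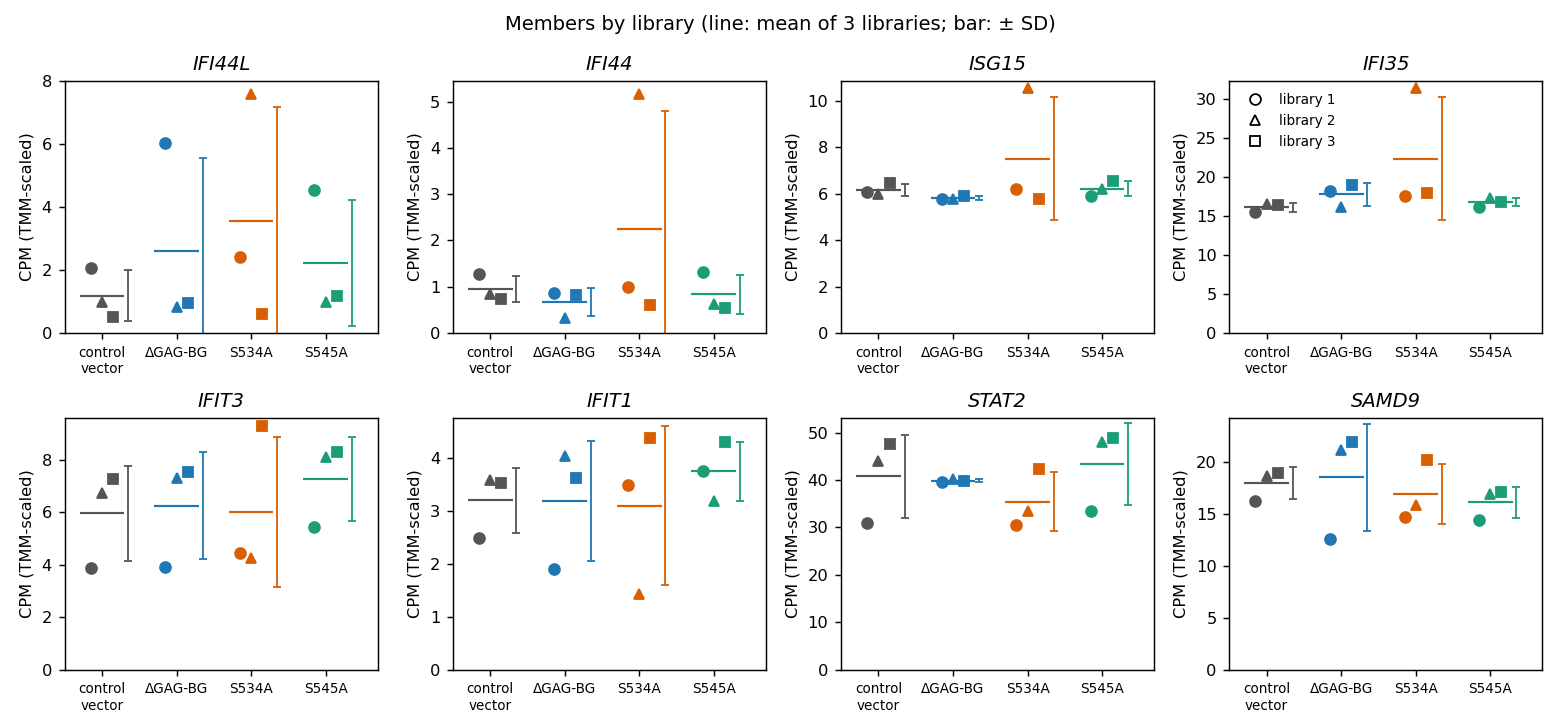
CPM of 8 members by group, with 1 mark per library (circle, triangle and square for libraries 1, 2 and 3), the mean of 3 libraries (line) and the SD (bar, shown only above 0). The triangle of S534A stands above the other libraries for IFI44L, IFI44, ISG15 and IFI35 and lowest for IFIT1, and the circles lie below the triangles and squares in 3 of 4 groups for IFIT3 and in all 4 for STAT2 and SAMD9.

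Library 1 differed from libraries 2 and 3 in the same direction across groups for some members, as for other genes, also described after the values were seen. In control vector, ∆GAG-BG and S545A alike, library 1 lay above both others in 2 of the 29 members (IFI44 and IFI44L), a rule that 10.2% of all genes met. It lay below both in 5 members (IFIT3, STAT2, HERC6, SAMD9 and SAMD9L), which 11.9% of all genes did. Both counts are near the shares of all genes, so no trait particular to the members is read from them. STAT2, HERC6, SAMD9 and SAMD9L were lowest in library 1 of S534A as well. The labels name no batch or date, so library number and any shared handling cannot be told apart.

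IFI44L, a neighbour and relative of IFI44, varied most of all tested members by the SD of log2(CPM + 1), while by the ratio of highest to lowest library IFI44 (15.9) lay slightly above it (14.95). It was at 2.08, 0.990 and 0.509 CPM with control vector, 6.03, 0.836 and 0.948 CPM in ∆GAG-BG, 2.42, 7.61 and 0.607 CPM in S534A and 4.54, 0.980 and 1.16 CPM in S545A. The high values were S534A library 2 and library 1 of ∆GAG-BG and S545A, so that all 4 groups overlapped. IFI44 shared the high value in S534A library 2, but in ∆GAG-BG library 1 it was at 0.862 CPM. IFIT3, the third in spread on the log2(CPM + 1) scale, was at 3.87, 6.74 and 7.24 CPM with control vector, 3.90, 7.29 and 7.54 CPM in ∆GAG-BG, 4.44, 4.24 and 9.28 CPM in S534A and 5.43, 8.09 and 8.30 CPM in S545A. Its low values were those of library 1 in each group and of S534A library 2.

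The rest of the pathway was examined in the same fit as lists of 31 and 40 genes. Of 31 genes of interferon ligands and signaling, 22 were tested, and 0 had an adjusted p under 0.05 in any comparison. At an unadjusted p under 0.05, SOCS3, a feedback inhibitor of JAK signaling, had a log2 fold change of 0.80 (unadjusted edgeR p of 0.0411) in S534A against ∆GAG-BG and 0.90 (unadjusted p of 0.0242) against control vector. It was -0.86 (edgeR p of 0.0301) in S545A against S534A. SOCS3 was at 40.5 CPM in S534A library 2 and at 9.80 to 15.8 CPM elsewhere. TICAM1, the adaptor of TLR3, had -0.38 (edgeR p of 0.0389) in S534A against control vector and 0.40 (edgeR p of 0.0337) in S545A against S534A. No other gene of this list reached that level. Without S534A library 2, SOCS3 was at 0.11, 0.21 and -0.17 and TICAM1 at -0.24 and 0.26 in the same order, all at an unadjusted p above 0.05. SOCS3 in S534A against ∆GAG-BG was 0.62 without ∆GAG-BG library 1 and 0.86 without library 3, and against control vector 0.85 without its library 3, also above 0.05. Against S545A its p rose above 0.05 without S545A library 2 (-0.83) or 3 (-0.80). The p of TICAM1 rose above 0.05 against control vector without library 2 (-0.33) or 3 (-0.32) of that group or S534A library 1 (-0.39), and between S545A and S534A without S545A library 2 (0.33) or 3 (0.31) or S534A library 1 (0.41). S534A library 2 lay above 1.5 times the median of the others in 6 of the 22 (IFNAR2, IRF3, MB21D1, IKBKE, SOCS1 and SOCS3) and below in 1 (TICAM1). That was 27.3% of the 22 above, against 10.8% of all genes, and 4.55% below, against 14.0%.

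Of 40 other interferon-induced genes, 38 were tested and again 0 had an adjusted p under 0.05. SLFN11, which blocks translation of viral RNA, had a log2 fold change of -0.44 (edgeR p of 0.0305) in S534A and -0.55 (edgeR p of 0.00925) in S545A, both against ∆GAG-BG. It was at 130.1, 84.5 and 90.3 CPM in ∆GAG-BG, 87.7, 56.4 and 81.3 CPM in S534A and 77.1, 64.5 and 66.3 CPM in S545A. Without ∆GAG-BG library 1, the high one, the values were -0.22 and -0.33, and without S534A library 2 the first was -0.26, each at an unadjusted p above 0.05. GBP2, a guanylate-binding protein, had -0.74 (edgeR p of 0.0471) and APOL1 -0.56 (edgeR p of 0.0459) in S545A against S534A. Without S534A library 2 they were -0.13 and -0.15, and without any 1 S545A library both also had an unadjusted p above 0.05. None of the 38 had an unadjusted p under 0.05 in the 3 other comparisons. S534A library 2 lay above 1.5 times the median of the others in 3 of the 38 (GBP1, GBP2 and APOL1) and below in 2 (TRIM5 and APOL6). That was 7.89% of the 38 above, against 10.8% of all genes, and 5.26% below, against 14.0%. S534A library 2 was the highest of the 12 in 11 of the 38 (28.9%, against 26.1% of all genes). It was the lowest in 8 (21.1%, against 25.4%). That library was picked with its values in view, and a difference between this list and the members was not tested.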

How the data were processed

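Total RNA of HEYA8 cells was made into 12 libraries with a directional kit per the labels. The authors deposited 1 table of raw counts per gene, with no normalization. The submitters' processing notes name FastQC, Trim Galore 0.4.5, STAR 2.4, SAMtools 1.2, featureCounts and the mouse builds mm10 and GRCm38. The table holds human genes, and all 37 members are in GENCODE release 29, 36 with the same start and end, which places it on GRCh38. The strand setting is not given in the sources used here.

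The deposited counts were filtered with filterByExpr at a minimum count of 10 and TMM-scaled. The quasi-likelihood test of edgeR 4.0.16 (robust, R 4.3.3) was run in 1 model of 4 groups with 8 residual degrees of freedom, adjusted by Benjamini-Hochberg over 16069 genes. The biological coefficient of variation was 0.163. CPM and RPKM use TMM-scaled library sizes, and the log scale of the exact permutation test (two-sided) is log2(CPM + 1). A floor of 3 counts corresponds to 0.1 to 0.182 CPM. The fit was also run on simulated independent libraries with a single spread for all genes. Unlike these data, they held no library that stood apart and no close pairs of libraries, so the run does not cover such features.

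Members and lists were chosen with earlier results of these data known. Named were ISG15, per comparison up to 3 members at the smallest unadjusted p under 0.05, the 3 with the highest RPKM, the 3 with the widest spread, other members by role, and genes of the pathway lists at an unadjusted p under 0.05 (at most 3 per comparison). Genes named for lack of overlap or for S534A library 2 were picked with their values in view.

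As alternatives, DESeq2 1.42.0 and limma-voom (limma 3.58.1) replaced the test. RLE factors or plain library sizes replaced TMM, and the filter was dropped or raised to 10 counts in each library. The model was cut to the 2 groups in question or given the replicate number as a block, libraries 2 and 3 were summed, and each library was left out (for genes of the pathway lists, an addition after seeing the data). The same numbers deviated together between S545A and control vector (correlations of 0.73, 0.48 and 0.48). These numbers were therefore taken as pairs in the alternative with a block, while the main model held none. In the other comparisons the correlations ran from -0.31 to 0.54, and each comparison held at least 1 negative value. The block was fitted to all libraries, so it also entered comparisons without such pairing. The choice of pairs came from the data alone, since the labels name no shared batch or day. Deviations were taken from each group's mean, and libraries 2 and 3 lay close together. The 3 correlations of S545A with control vector are therefore not independent. Unlike numbers were not compared.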

Additional observations from a re-analysis of the deposited data

How the results depend on the processing

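Across 15 alternatives in each comparison, 0 members had an adjusted p under 0.05, and the members' median log2 fold change stayed between -0.129 and 0.141. It moved by less than the spread between replicates (0.0465 to 0.112) in 88 of 90 cases. Over the libraries left out, it ran from -0.0263 to 0.141 in S534A against control vector and from -0.0254 to 0.0302 in S545A against control vector.

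Genes with an adjusted p under 0.05, 0 in the edgeR fit, numbered 5 by DESeq2, 1 without the filter and 1 by limma-voom in S534A against ∆GAG-BG. They numbered 2, 1 and 1 in S534A against control vector, and 1, 1 and 1 between S545A and S534A.

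Members at an unadjusted p under 0.05 in S534A against ∆GAG-BG, 1 by edgeR, became 0 with 10 counts in every library, with only the 2 groups, with the replicate block and with libraries 2 and 3 summed. Leaving out a library gave 0 to 4. In S545A against ∆GAG-BG, 0 became 1 (MX1) with 10 counts in every library and ran from 0 to 1. In S534A against control vector, 1 became 0 with only the 2 groups or with summed libraries and ran from 0 to 6. In S545A against control vector, 0 ran to 1. In S545A against S534A, 1 became 2 by DESeq2, by library size only and without the filter, and 0 with 10 counts, by limma-voom, with only the 2 groups and summed, and ran from 0 to 7. Without S534A library 2, the count was 0 in all 3 comparisons that use it.

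Under the replicate block, IFI44 in S534A against ∆GAG-BG was 1.58 (edgeR p of 0.0615) and IFI35 in S545A against S534A -0.39 (edgeR p of 0.0617). There the count stayed at 1 because STAT2, at 0.28 (edgeR p of 0.0486), took its place. The pairing of S545A with control vector changed no call. In the comparisons with S534A named here, the same library numbers did not all deviate together, so the block has no such ground there.

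Leaving out a library reversed some directions. IFI44L ran from -0.449 (without ∆GAG-BG library 1) to 1.81 in ∆GAG-BG against control vector. Without S534A library 2, IFI44L was -0.689 against ∆GAG-BG (highest 2.04), IFI44 -0.221 (highest 1.67) and ISG15 -0.0423 (highest 0.442) against control vector. Between S545A and S534A, IFI44 was then 0.0105 (lowest -1.98) and ISG15 0.0541 (lowest -0.431). The causes of these shifts were not tested. The 8 untested members had too few counts for a test at this depth, which does not separate low from absent expression.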
